A study of Mus musculus with 16 samples.

Results

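Plasmacytoid dendritic cells (pDC) were selected on raw counts of unique molecular identifiers (UMIs), the molecules counted per gene and cell barcode, in 16 single-cell RNA libraries of mice bearing MC38 tumors. A barcode was taken with at least 1 UMI of Siglech, at least 1 UMI over Cox6a2, Ccr9 and Klk1 together, 0 UMIs of Cd3e, Cd3d and Cd3g, and at most 2 UMIs over C1qa, C1qb and C1qc. The rule took 261 of 37609 barcodes, 204 from tumors and 57 from spleens, and these 261 cells are called members here.

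The mice were female C57BL/6 animals of 8 weeks, either Aire+/+ or carrying a knockout of Aire (Aire-/-), the transcription factor through which thymic epithelium displays antigens of other tissues. They carried subcutaneous MC38 tumors, a colon tumor line of C57BL/6 origin, received an antibody against the inhibitory receptor PD1 (aPD1, here anti-PD1) or an Isotype Control antibody (here isotype), and gave tumors and spleens on day 19. Each condition had 1 tumor pool, from 4 to 6 mice, and 1 spleen pool, and whether both came from the same mice is not stated. In its flow cytometry section the paper gives enzymes for dissociating tumors and mechanical means for spleens. For the single-cell libraries these steps are not repeated. If they were the same, tissue and dissociation cannot be told apart. Cells were sorted as CD45+ or as CD8+, and each genotype, treatment, tissue and sort gave 1 library. Genotypes and treatments are therefore compared as values only, and values are given in the order Aire+/+ isotype, Aire+/+ anti-PD1, Aire-/- isotype, Aire-/- anti-PD1.

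As background, pDC are a dendritic lineage that depends on the transcription factor Tcf4, resembles a secretory lymphocyte and senses nucleic acids in endosomes through Tlr7 and Tlr9. Signalling from these receptors through Irf7 lets pDC release large amounts of type I interferon. In tumors pDC have been linked both with antitumor immunity and, in a poorly interferon-producing state, with tolerance.

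Members made up a small share of each library, and in 3 of the 4 conditions the CD8+ tumor library held the largest share. The CD45+ tumor libraries held 10, 10, 5 and 10 members, or 0.341% (exact Clopper-Pearson 95% interval 0.163 to 0.625), 0.452% (0.217 to 0.830), 0.269% (0.0873 to 0.626) and 0.482% (0.231 to 0.884) of their barcodes. The CD8+ tumor libraries held 96, 36, 27 and 10 members, or 3.57% (2.90 to 4.34), 1.62% (1.14 to 2.24), 1.45% (0.959 to 2.11) and 0.452% (0.217 to 0.8291). The Aire+/+ isotype library was the highest of these and its interval met no other, while the Aire-/- anti-PD1 library was the lowest and its interval met no other. In the spleen the CD45+ libraries held 7, 5, 8 and 4 members, or 0.330% (0.133 to 0.679), 0.236% (0.0767 to 0.550), 0.391% (0.169 to 0.768) and 0.167% (0.0454 to 0.426). The CD8+ spleen libraries held 6, 4, 9 and 14, or 0.207% (0.0759 to 0.449), 0.135% (0.0368 to 0.345), 0.382% (0.175 to 0.724) and 0.532% (0.291 to 0.891). Intervals cover counting error only, and with 1 library each no difference between conditions was tested.

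Among barcodes without a Cd3 UMI, the ones the rule could take, the CD8+ tumor libraries came in the same order, but every interval met the others. There were 134, 62, 54 and 22 such barcodes in these libraries, and members were 71.6% (exact 95% interval 63.2 to 79.1), 58.1% (44.8 to 70.5), 50% (36.1 to 63.9) and 45.5% (24.4 to 67.8) of them. In the CD8+ spleen libraries members were 6.19%, 5.63%, 16.4% and 18.7% of 97, 71, 55 and 75 such barcodes.

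**Figure D1:**
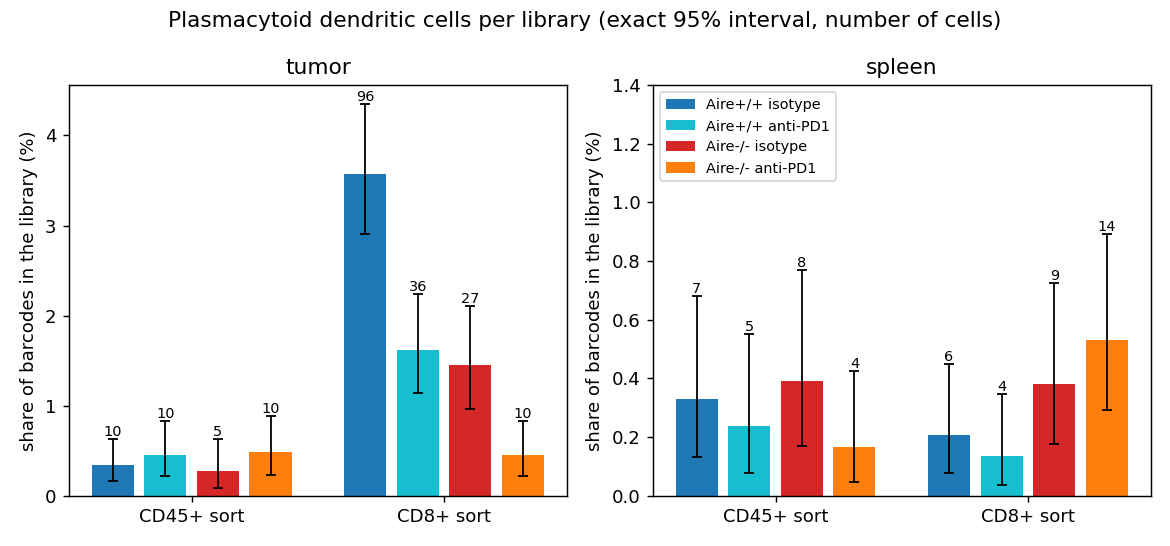
Share of members among the barcodes of each of the 16 libraries, in percent with exact 95% intervals, by tissue, sort and condition. The CD8+ tumor libraries run from 3.57% in Aire+/+ isotype mice to 0.452% in Aire-/- anti-PD1 mice, and the spleen libraries all lie at or below 0.532%.

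Siglech, a lectin receptor of mouse pDC, was found in 342 barcodes, of which 39 lacked a UMI of the second markers, 41 carried a Cd3 UMI and 1 exceeded the C1q limit. Just inside the rule stood 4 members with 1 Siglech UMI, 4 with a second-marker sum of 1 and 9 with a C1q UMI. Just outside stood the 39 barcodes without a second marker, which held 114 Siglech UMIs together, and the Cd3-positive barcodes, 21, 7, 4 and 1 of them in the CD8+ tumor libraries. Of the 261 members, 203 carried all of Cox6a2, Ccr9 and Klk1, 24 carried Cox6a2 and Ccr9 only, and 22 Ccr9 only. Counted in each library, 1750 barcodes had a sequence also found in another library. Of these barcodes 9 were members, and 0 of those was a member in the other library.

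Depth and the mitochondrial share differed between the tissues. Library totals ran from 10987966 to 38961019 UMIs, and members had a median of 12669 UMIs in tumors and 8973 in spleens. Library medians of members ran from 11476 to 15275.5 UMIs in tumors and from 6134.5 to 10280 in spleens. The median mitochondrial share of members ran from 3.13% to 3.59% in tumor libraries and from 3.98% to 7.50% in spleen libraries, and single members reached 23.4% and 36.6%. For the tissue comparison members of both sorts were added up per tissue and condition, giving sums of 106, 46, 32 and 20 members with 1315180, 595851, 424044 and 276373 UMIs in tumors. The spleen sums held 13, 9, 17 and 18 members with 114987, 81818, 154418 and 135952 UMIs. Levels below are counts per 1000000 UMIs of these sums (CPM), and 3 counts over all sums of a tissue, the floor used for a gene at 0, are 1.15 CPM in tumors and 6.16 CPM in spleens. Differences, where no fold is named, are log2 of tumor over spleen with the standard error of the fit, and adjusted p values are from edgeR.

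The label was checked on markers. The rule genes are a description of how members were chosen: Siglech stood at 2518, 2415, 2481 and 2272 CPM in the tumor sums and at 2122, 2090.0, 2299 and 3156 CPM in the spleen sums. Klk1, a tissue kallikrein, stood at 3774, 2643, 3450.1 and 5825 CPM in tumors and 652, 1063, 1269 and 1905 CPM in spleens. Ccr9, the receptor for the gut and thymus chemokine Ccl25, stood at 2051, 1984, 1979 and 2149 CPM in tumors and 757, 428, 699 and 728 CPM in spleens, and Cox6a2, a muscle-type subunit of cytochrome c oxidase, at 1544, 1648, 2629 and 1831 and 948, 599, 1891 and 2376 CPM. The tumor sums were higher than the spleen sums for Klk1 and Ccr9, and overlapped with them for Siglech and Cox6a2.

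Markers outside the rule marked the same cells. Bst2, the tetherin that pDC carry at rest, had a median of 54 UMIs per tumor member (6 to 132) and 44 per spleen member (0 to 89), and 4324 and 4594 CPM against 589 and 112 CPM in all other barcodes of tumors and spleens. Tcf4, the lineage regulator, had a UMI in 201 of 204 tumor members and 57 of 57 spleen members. Irf8, a transcription factor of dendritic cells, was found in 202 of 204 and 55 of 57, and Ly6d, a surface protein of lymphoid progenitors and pDC, in 186 of 204 and 47 of 57. Spib and Bcl11a, both transcription factors of the lineage, stood at 271 and 472 CPM in tumor members and 240.2 and 423 CPM in spleen members. At the low end, 9 members had 6 Bst2 UMIs or fewer, 8 of them in spleens. Mki67, a gene of dividing cells, had a UMI in 4 of 204 tumor and 4 of 57 spleen members. Top2a, a topoisomerase of dividing cells, was found in 7 of 204 and 0 of 57, and the exact Clopper-Pearson 95% limit of the latter is 6.27% of members with a detected UMI, which does not bound expression below detection.

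Free RNA in droplets was gauged on T cells, taken as barcodes with at least 2 Cd3 UMIs. Of T cells, 0% to 0.483% per library had a Siglech UMI, the highest being 2 of 414 in the CD45+ spleen library of Aire+/+ anti-PD1 mice. T cells had median depths of 9723 UMIs in tumors and 6100 in spleens, against 12669 and 8973 in members. Apart from the immunoglobulin genes below, free RNA of other genes was not gauged, so their shares with a UMI count detection only.

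Members also carried transcripts of lymphocyte genes. Ighm, the constant gene of immunoglobulin M, had a UMI in 201 of 204 tumor members (98.5%, against 13.7% of tumor T cells) and in 56 of 57 spleen members (98.2%, against 68.2% of spleen T cells). The lambda light chain constant gene Iglc3 had a UMI in 86.3% of tumor members and 73.7% of spleen members, against 0.0478% and 0.605% of T cells. Igkc, the kappa constant gene, was found in 57.8% and 28.1% of members, against 1.85% and 1.83% of T cells. The switched constant genes Igha, Ighe, Ighg1, Ighg2b, Ighg2c and Ighg3 were at 0 UMIs in members of both tissues. Dntt, the template-independent polymerase of V(D)J joining, stood at 324 CPM in tumor members and 0.674 CPM in other tumor barcodes. Its level in spleen members is not given here, so Dntt is read for tumor members only. Iglc1, Iglc2 and Iglc3 are close paralogs, so the split of UMIs between them is uncertain, and the names Iglc1, Iglc3, the switched genes and Dntt were chosen after their values were seen.

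Iglc2 rose in tumors, while the differences of Ighm, Iglc3 and Igkc did not pass. Ighm stood at 512, 559, 564 and 575 CPM in tumor sums and 513, 440.0, 648 and 721 CPM in spleen sums (log2 difference 0.05, adjusted p = 0.903). In T cells Ighm stood at 24.8 CPM in tumors and 246 CPM in spleens, and the part of free RNA in the levels of members was not tested. Iglc3 stood at 708, 633, 757 and 604 CPM and 609, 501, 738 and 978 CPM (0.07, adjusted p = 0.855). Iglc2 stood at 494, 379, 578 and 589.8 CPM in tumors and 122, 85.6, 214 and 162 CPM in spleens, with no overlap (1.90, standard error 0.20, adjusted p = 3.51e-09). Igkc stood at 445, 277, 337 and 192 CPM and 104, 147, 97.1 and 478 CPM, and its difference did not pass (0.79, adjusted p = 0.0799).

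The CD8 chains, which pair on killer T cells, were common in members. In the CD45+ sorts, which did not select on CD8, Cd8a had a UMI in 62.9% and Cd8b1 in 74.3% of the 35 tumor members, and 51.4% had both. In the 24 spleen members of the CD45+ sorts these shares were 25%, 20.8% and 8.33%, and 62.5% had neither chain. In the CD8+ sorts Cd8a had a UMI in 92.9% of the 169 tumor and 84.8% of the 33 spleen members, and Cd8b1 in 75.1% and 42.4%. Cd8b1 rose in tumors, with 906, 854, 865 and 546 CPM against 304, 85.6, 285 and 169 CPM in spleens (1.99, standard error 0.20, adjusted p = 2.43e-09), and the 4 tumor sums all lay above the 4 spleen sums. Most tumor members came from CD8+ sorts, but Cd8a and Cd8b1 also rose within the CD45+ sorts (2.26 and 2.22, adjusted p = 0.0154 and 2.16e-04) and within the CD8+ sorts (0.94 and 1.62, adjusted p = 0.00402 and 5.58e-04). Within the CD45+ sorts Cd8b1 stood at 629.6 CPM in tumor members and 151 CPM in spleen members. Pooled over sorts Cd8b1 stood at 849 CPM in tumor members and 1393 CPM in tumor T cells. Lck, the kinase of T cell receptor signalling, Thy1, a surface protein of T cells, and the costimulatory receptor Cd28 stood at 9.19, 16.8 and 8.04 CPM in tumor members, against 650.2, 1765 and 283 CPM in tumor T cells. Other T cell markers went the other way, since Lat and Il7r rose in tumor members (1.77 and 1.04). All listed T cell markers with UMIs in members, Cd8b1 included, summed to 1332 CPM in tumor members and 5143 CPM in tumor T cells.

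The question of the main comparison was which genes differ between members of tumors and of spleens. Tumor members carried far more transcripts of the chemokine gene Ccl4, of the tissue retention receptor Cd69, of the migration receptor Gpr183 and of immediate early genes such as Fos. Of 29 secretory pathway genes tested 18 rose, while the lectin genes Cd209a, Cd209c and Cd209d and the transcription factor Zeb2 fell, of which Cd209c alone passed within the CD45+ sorts. Of 11 MHC class II presentation genes tested 8 fell, but 0 of 8 within the CD45+ sorts in edgeR (2 with unadjusted p under 0.05) and 3 of 15 in DESeq2, and single spleen members held much of the level. The comparison was fitted in edgeR over 8 sums, tumor and spleen of 4 conditions, with the condition as a block. Of 6421 genes tested, 536 were higher in tumors (8.35%) and 253 lower (3.94%), 12.3% in either direction, with a median log2 difference of -0.02 over all genes tested. Of these, 409 and 203 did not overlap between tissues, and the median size was 1.28 and 1.22 on the log2 scale. Calls and overlap come from the same sums, and overlap was not counted over all genes tested. Nothing is therefore read from the 409 and 203, nor from counts below of genes with the same sign in all 4 conditions. DESeq2, which tested 12380 genes, placed the median of all genes at -0.21, so list medians below are read beside the median of all genes. Counts of lists are edgeR calls, and for each list with 0 falling or 0 rising in edgeR, DESeq2 also called 0 in that direction. Leaving out the Aire+/+ isotype pools, which held the most members, gave 336 higher and 121 lower genes, and leaving out the Aire-/- isotype pools gave 352 and 155. Of the called genes named or in lists, 153 could be fitted within the CD45+ sorts, where members are few, and 73 kept the call, 77 lost it and 3 changed sign.

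**Figure D2:**
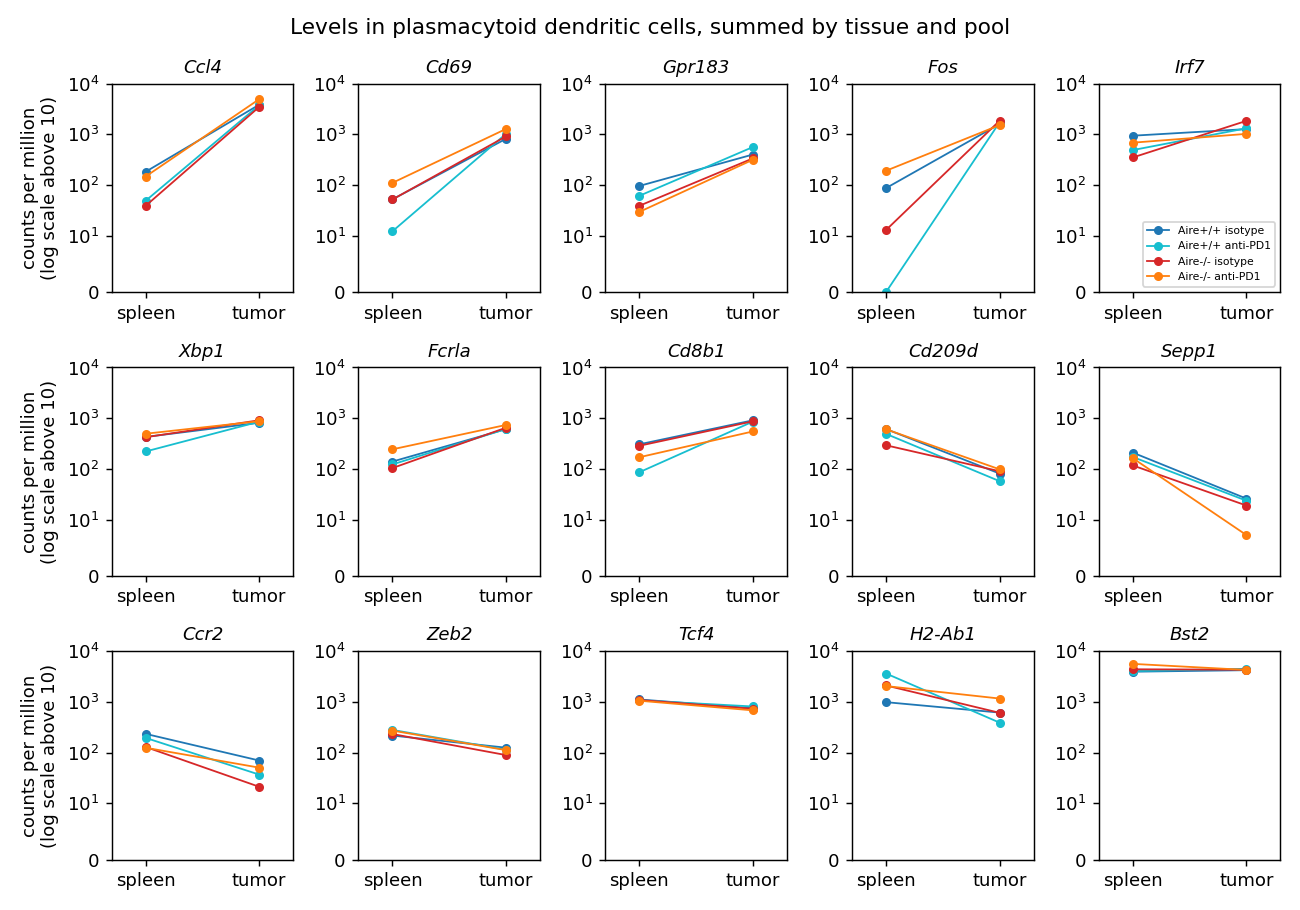
Levels of 15 genes in the 4 tumor sums and the 4 spleen sums of members, in CPM on an axis that is logarithmic above 10, with the spleen and tumor sum of each condition joined by a line. Ccl4, Cd69, Gpr183 and Fos are higher in tumors in all 4 conditions, Cd209d, Sepp1 and Zeb2 are lower in all 4, and Bst2 overlaps between tissues.

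The genes with the largest increases, among those higher in all 4 conditions and at least as abundant in members as in other barcodes, began with 8 that were at 0 in all spleen sums. Grasp, a scaffold protein of membrane traffic, stood at 174, 277, 167 and 68.7 CPM in tumors and was at least 30.1-fold higher than the spleen floor (adjusted p = 2.03e-10). The others were Spsb1, an adaptor of ubiquitin ligases (at least 8.89-fold), Sco1, a copper chaperone of cytochrome c oxidase (at least 6.16-fold), Calm4 (at least 6.53-fold) and Slc27a3 (at least 4.85-fold). Gpnmb, a transmembrane glycoprotein (at least 4.35-fold), Gfra3, a receptor of the GDNF family (at least 4.17-fold), and Gm4285 (at least 2.92-fold) completed these. All 8 had UMIs in every tumor sum and in no spleen sum. They thus passed the count filter on their tumor UMIs alone, which favours genes high in tumors. Gm4285 did not pass without the Aire+/+ isotype pools (adjusted p = 0.0934) or without the Aire-/- anti-PD1 pools (adjusted p = 0.074).

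Some of the largest increases rested on 1 or 2 UMIs in the spleen, and their ratios carry wide counting intervals. Fam46c, a poly(A) polymerase of secretory cells, stood at 92.0, 70.5, 61.3 and 123 CPM in tumors and was 41.6-fold (interval 7.39 to 1650.4) higher than in spleens. Gcnt2, an enzyme of glycan branching, was 18.2-fold (interval 4.97 to 151) higher, and Cd59a, an inhibitor of complement lysis, 18.5-fold (interval 5.05 to 154). Gpr55, a lipid receptor, was 13.2-fold (interval 2.30 to 530.4) higher, and Il12a, the p35 chain of interleukin 12, 16.04-fold (interval 2.80 to 641). Il12a had a UMI in 51 of 204 tumor members and in 1 of 57 spleen members. For each of these genes every tumor sum lay above every spleen sum.

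Of the 536 genes that rose, 486 were higher in tumors in all 4 conditions, and 122 of these were more abundant in other barcodes than in members. The largest changes among the 122 were of Nr4a1, Atf3, Cdkn1a, Mmp14 and Ccl3. Nr4a1, a nuclear receptor induced by antigen and stress signals, was at 0 in spleen members and at least 20.3-fold higher in tumors, with a UMI in 85 of 204 members. Atf3, a stress transcription factor, was at least 13.4-fold higher, with 309 CPM in the CD45+ and 33.1 CPM in the CD8+ sorts of tumors. Cdkn1a, the cell cycle inhibitor p21, was at least 9.51-fold higher, and Mmp14, a membrane metalloprotease, at least 7.90-fold. Of the 253 genes that fell, 227 were lower in all 4 conditions, and in 61 of these other barcodes were likewise higher than members. The largest of these falls were of Acp5, a lysosomal phosphatase (-3.68), Bin1, a membrane-curving protein (-3.14), Inpp4b, a lipid phosphatase (-2.87), H2-DMb2 (-2.48) and Cd1d1, which presents lipids (-2.46). Leaving out the Aire+/+ anti-PD1 or the Aire-/- isotype pools ended the calls of Inpp4b (adjusted p = 0.0591 and 0.0758) and Cd1d1 (0.0591 and 0.12). Cd1d1 was also lost without the Aire-/- anti-PD1 pools (adjusted p = 0.133).

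The largest decreases in tumors included those of Myo1f, Sepp1, Tmem176a, Cd209c and Cd209a. Myo1f, a myosin of leukocytes, stood at 11.4, 10.1, 11.8 and 7.24 CPM in tumors and 113, 61.1, 97.1 and 80.9 CPM in spleens (-2.97, standard error 0.39, adjusted p = 4.31e-07). Sepp1, the selenium carrier of plasma, stood at 25.9, 23.5, 18.9 and 7.24 CPM and 209, 171, 117 and 162 CPM (-2.92, standard error 0.30, adjusted p = 3.57e-09). Tmem176a, a membrane protein of dendritic cells, stood at 15.2, 18.5, 21.2 and 10.9 CPM and 113, 220.0, 104 and 80.9 CPM (-2.80, standard error 0.33). In these 3 genes every spleen sum was above every tumor sum. The C-type lectins Cd209c (-3.46) and Cd209a (-2.66) also fell, with Cd209a at 54.0, 42.0, 14.1 and 94.1 CPM in tumors and 139, 550.0, 311 and 463 CPM in spleens. The tumor and spleen sums of Cd209a did not overlap, but within the CD45+ sorts Cd209a did not pass (-0.97, adjusted p = 0.333). In the CD45+ libraries of Aire-/- anti-PD1 mice Cd209a stood at 178 CPM in tumor and 84.1 CPM in spleen members, on 26 and 2 UMIs.

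The remaining large decreases were of low-abundance genes. F630028O10Rik had 2 UMIs in tumors and was 48.2-fold (interval 11.6 to 429) higher in spleens, and Fhit, a dinucleoside hydrolase, had 3 UMIs in tumors and was 35.7-fold (interval 10.6 to 188) higher. Kctd14 (-3.37), A530088E08Rik (-3.03), BC035044 (-2.84), and Arl11, a small GTPase (-2.80), fell and were lower in all 4 conditions. So were Shtn1 (-2.97), Adora2a, an adenosine receptor (-2.72), and Adrbk2, a receptor kinase (-2.72). With the Aire+/+ isotype pools left out Shtn1, Adora2a and Adrbk2 did not pass (adjusted p = 0.121, 0.0864 and 0.0616).

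The levels of pDC identity genes differed between tissues in both directions. Members were chosen on pDC genes, so cells that had lost the rule genes could not be seen here. Of 45 markers outside the rule that were in the tables and tested, of 46 listed, 21 rose in tumors and 4 fell, with a median of 0.39. Fcrla, an intracellular Fc receptor-like protein of B cells and pDC, stood at 608, 611, 649 and 735 CPM in tumors and 139, 122, 104 and 243 CPM in spleens (2.23, standard error 0.20, adjusted p = 1.62e-10). Cd209d, a lectin, stood at 80.6, 57.1, 89.6 and 97.7 CPM and 609, 489, 291 and 603 CPM (-2.49, standard error 0.20, adjusted p = 1.16e-11). Neither gene overlapped between tissues, but within the CD45+ sorts Cd209d did not pass (-0.79, adjusted p = 0.364). Ccnd3, a D-type cyclin (1.43), and Cd8a (1.38) also rose, Cd8a with 693, 799, 618 and 499 CPM against 183, 269, 181 and 471 CPM. The summed level of the list was 43444, 45238, 45689 and 40210.2 CPM in tumors and 33595, 34821, 32794 and 40801 CPM in spleens, so that the sums overlapped. Leaving out the Aire+/+ isotype or the Aire+/+ anti-PD1 pools gave 14 higher and 3 lower genes each. Of the markers given with the rule, Bst2 alone could be tested, at 4241, 4519.6, 4332 and 4288 CPM and 3957, 4070.0, 4417 and 5649 CPM (0.07, adjusted p = 0.812). The 5 genes of that list summed to 14128, 13209.7, 14871 and 16366 CPM in tumors and 8436, 8250.0, 10575 and 13814 CPM in spleens.

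Most lineage transcription factors tested did not pass. Of 12 tested of 15, 4 fell, 1 rose and 7 were not called, with a median of -0.13. Zeb2, a repressor needed for pDC development, stood at 125, 114, 89.6 and 112 CPM in tumors and 217, 281, 233 and 272 CPM in spleens (-1.05, standard error 0.20, adjusted p = 2.47e-04), without overlap, and did not pass within the CD45+ sorts (-0.85, adjusted p = 0.177). Tcf4 stood at 754, 816, 733 and 684 CPM and 1122, 1076, 1094 and 1059 CPM (-0.43, standard error 0.15, adjusted p = 0.0469), again without overlap, but leaving out any pair of pools ended its call (adjusted p = 0.142, 0.0527, 0.0958 and 0.153 in the order of conditions). Cbfa2t3, a corepressor (-0.98), and Mycl, a Myc family factor of dendritic cells (-0.97), also fell, and Stat3, which relays cytokine signals, rose (0.78). Cbfa2t3 was lost without the Aire+/+ isotype or the Aire-/- anti-PD1 pools (adjusted p = 0.349 and 0.113), Mycl without the Aire-/- isotype pools (adjusted p = 0.155), and Stat3 without the Aire+/+ anti-PD1 pools (adjusted p = 0.107). The list then had 1 gene higher and 2 lower without the Aire+/+ isotype, the Aire-/- isotype or the Aire-/- anti-PD1 pools, and 0 higher and 3 lower without the Aire+/+ anti-PD1 pools. Irf8 (0.14, adjusted p = 0.58), Spib (0.26, adjusted p = 0.45) and Runx2 (-0.48, adjusted p = 0.0762) did not pass. Zbtb16, a factor of innate lymphocytes, was at 0 in members of both tissues. Without a filter on low counts, where 14 genes were tested, the list's median was 0.06.

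Genes of endosomal nucleic acid sensing stood slightly higher in tumors. Of 22 tested of 25 in the tables and 26 listed, 7 rose and 0 fell (1 with unadjusted p under 0.05), with a median of 0.37. Irf7, the master regulator of interferon induction, stood at 1267, 1316, 1844 and 1020.4 CPM in tumors and 939, 489, 349.7 and 684 CPM in spleens (1.28, standard error 0.20, adjusted p = 1.17e-05), every tumor sum lying above every spleen sum. Tlr7, the receptor for single-stranded RNA, stood at 182, 216, 189 and 239 CPM and 60.9, 85.6, 110.1 and 206 CPM (0.95), overlapping in the Aire-/- anti-PD1 spleen sum. Its call was lost without the Aire+/+ isotype (adjusted p = 0.102) or the Aire+/+ anti-PD1 pools (adjusted p = 0.0513). Pld3, a nuclease that degrades endosomal nucleic acid, had 2 UMIs in spleens and was 13.2-fold (interval 3.57 to 109.7) higher in tumors, and Lgmn, a lysosomal protease that processes Toll-like receptors, rose by 1.54. Tlr9, the receptor for CpG DNA (0.14, adjusted p = 0.807), and its chaperone Unc93b1 (0.18, adjusted p = 0.491) did not pass. The list summed to 10187, 10167, 11268 and 9954 CPM in tumors and 7470.4, 6991, 6508 and 8783 CPM in spleens, without overlap.

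Of the inhibitory receptors and adaptors that restrain pDC, 16 of 20 were tested, 3 rose and 0 fell (2 with unadjusted p under 0.05), with a median of 0.12 that was -0.01 under DESeq2. Lag3, an inhibitory receptor for MHC class II, stood at 808, 544, 639 and 514 CPM in tumors and 400.0, 452, 343 and 235 CPM in spleens (0.94, standard error 0.17, adjusted p = 1.30e-04), without overlap. Blnk, an adaptor of B cell receptor signalling (0.85), and Lair1, a collagen receptor (0.83), also rose. Blnk did not pass without the Aire+/+ isotype or the Aire+/+ anti-PD1 pools (adjusted p = 0.0687 and 0.0627). The list was led by Tyrobp, the adaptor of Siglech, and includes the rule gene Siglech. Without Siglech it summed to 14091, 15114.5, 14300.4 and 14014 CPM in tumors and 14036, 13273, 13651 and 15344 CPM in spleens, so that the sums overlapped. Once the Aire+/+ isotype pools were left out, 1 gene of the list, the Ly49 receptor Klra17, fell (-0.78, adjusted p = 0.0369), a name chosen after its value was seen. Klra17 passed in 5 of 16 alternative settings, with values from -0.78 to -0.18 over all 16.

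Interferon genes themselves were nearly silent, with the exception of 1 cell. Of 20 type I and III interferon genes, 0 had enough counts to be tested in edgeR (DESeq2 tested 13 and called 0), and members held 160 UMIs of them, 139 of type I and 21 of type III, in 7 of 204 tumor members (3.43%) and 0 of 57 spleen members. Of these UMIs, 148 (92.5%) lay in 1 member of the CD8+ tumor library of Aire-/- anti-PD1 mice. That cell held 63 UMIs of Ifnb1, 75 of Ifna genes and 10 of Ifnl2, over 11 genes, which were 1.02% of its 14574 UMIs. It also held 690 UMIs of Ccl4, 216 of Ccl3, 60 of Ifit1 and 18 of Ccr7, the receptor that guides dendritic cells to lymph nodes, and 25 UMIs of Siglech and 51 of Bst2. Other members had at most 7 interferon UMIs each. In all other barcodes, 32 of 37348 held such UMIs, 90 in total and at most 28 in 1 barcode. The summed level was 5.32, 1.68, 2.36 and 546 CPM in tumors and 0 in all spleen sums, and without that cell the tumor members held 12 UMIs. Since near-identical Ifna genes share sequence, their split is uncertain.

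Some chemokine and cytokine genes rose by large factors. Of 6 cytokine and effector genes tested of 16, 5 rose and 1 fell, with a median of 3.86. Ccl3, Tnf and Il12a passed the count filter on their tumor UMIs, with 2, 2 and 1 UMIs in spleens. The filter thus favours genes high in tumors, and nothing is read from the median. Ccl4, a chemokine that draws in leukocytes, stood at 3841, 3754, 3476 and 4935 CPM in tumors and 183, 48.9, 38.9 and 147 CPM in spleens (5.40, standard error 0.22, adjusted p = 4.41e-20), and had a UMI in 87.7% of 204 tumor and 28.1% of 57 spleen members. These shares count detection only, since free RNA of Ccl4 was not gauged. Other barcodes held genes of the list at 10028 CPM in tumors and 1834 CPM in spleens. The tumor sums of Ccl4 all lay far above the spleen sums, but 690 of the 1364 UMIs of the Aire-/- anti-PD1 tumor sum lay in the interferon-rich cell, without which that sum stood at 2574 CPM, the lowest of the 4. Ccl3, its neighbour gene, had 2 UMIs in spleens and was 54.9-fold (interval 15.1 to 455) higher in tumors, with 216 of its 589 tumor UMIs in the interferon-rich cell. Tnf, the inflammatory cytokine, was 13.6-fold (interval 3.70 to 114) higher. The gene that fell, Ccl5, had 79 of its 81 spleen UMIs in 1 member of the CD45+ spleen library of Aire-/- isotype mice, and 0 genes of the list fell without the Aire-/- isotype or the Aire+/+ isotype pools, where Ccl5 was too low to test. Genes of this list summed to 4335, 4340.0, 4084 and 6108 CPM in tumors and 348, 134, 719 and 294 CPM in spleens. Without the interferon-rich cell the Aire-/- anti-PD1 tumor sum of the list was 2976 CPM in place of 6108 CPM.

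Interferon-stimulated genes leaned upwards in tumors. Of 45 tested of 54 in the tables and 56 listed, 13 rose and 0 fell (1 with unadjusted p under 0.05), with a median of 0.65. Zbp1, a sensor of Z-form nucleic acid (3.59, adjusted p = 1.52e-06), and Ifit2, an antiviral translation inhibitor (2.80, adjusted p = 6.34e-06), rose. Phf11d had 1 UMI in spleens and was 16.04-fold (interval 2.80 to 641) higher, and Ifit1 rose by 2.63 with 60 of its 95 tumor UMIs in the interferon-rich cell. Without the Aire-/- anti-PD1 pools Ifit1 did not pass (adjusted p = 0.374). The interferon-stimulated genes summed to 12168, 12757, 15753 and 11995 CPM in tumors and 10758, 9240.0, 7991 and 11909 CPM in spleens, the Aire-/- isotype pools giving both the highest tumor and the lowest spleen value. Without those pools 6 of 42 genes rose and 1 fell, with a median of 0.22. In the CD45+ sort of Aire-/- isotype tumors, 5 members, the list reached 21955 CPM, against 10664 to 14419 CPM in the other 7 tumor libraries.

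Of interferon-γ-stimulated genes, 18 of 25 were tested, 4 rose and 1 fell, with a median of 0.57. Irf1, a transcription factor of the interferon response, stood at 439, 556, 373 and 589.8 CPM in tumors and 122, 244, 149 and 257 CPM in spleens (1.47, standard error 0.19, adjusted p = 3.44e-07). Gbp2, a guanylate-binding protein, had 1 UMI in spleens and was 10.6-fold (interval 1.83 to 427) higher in tumors. It had a UMI in 14 of 204 tumor members, with 105 CPM in the CD45+ sorts and 3.73 CPM in the CD8+ sorts of tumors. Iigp1, an immunity GTPase, rose by 1.38, but not without the Aire+/+ isotype or the Aire-/- isotype pools (adjusted p = 0.117 and 0.253). Ciita, the activator of MHC class II transcription, fell. The list had 1 gene higher and 1 lower of 17 without the Aire-/- isotype pools, and 2 higher and 1 lower without the Aire-/- anti-PD1 pools. Its sums were 1518, 1667, 2163 and 2229 CPM in tumors and 1209, 1613, 991 and 1817 CPM in spleens, and overlapped.

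Genes of MHC class II presentation fell, and a few spleen members carried much of their level. Of 11 tested of 15, 8 fell and 0 rose (0 with unadjusted p under 0.05), with a median of -1.29. H2-Ab1, a beta chain, stood at 617, 391, 611 and 1169 CPM in tumors and 991, 3642, 2118 and 2059.6 CPM in spleens (-1.50, standard error 0.23, adjusted p = 6.07e-06). H2-Eb1, another beta chain, stood at 665, 314, 566 and 1176 CPM and 800.1, 4070.0, 2403 and 1935 CPM (-1.57), and Ciita at 9.12, 3.36, 9.43 and 0 CPM and 26.1, 85.6, 71.2 and 36.8 CPM (-2.87, standard error 0.58). H2-DMb2, a chaperone of peptide loading, fell by 2.48 on the log2 scale. The tumor and spleen sums overlapped for H2-Ab1 and H2-Eb1, where the Aire+/+ isotype spleen sum was low and the Aire-/- anti-PD1 tumor sum high, and did not overlap for Ciita. Summed over the list, levels were 10029.8, 7628, 10676 and 16861 CPM in tumors and 12010.0, 34418, 23138 and 23758 CPM in spleens, led by the invariant chain gene Cd74.

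In the CD8+ sort of Aire+/+ anti-PD1 spleens, 1 member held 1758 of the 2816 MHC class II UMIs of its sum (62.4%), or 115022 CPM of its own UMIs. It had 1 UMI of Siglech, 14 of Bst2, 0 of Ly6d and 21 of Cd209a. In Aire-/- isotype spleens 1 member held 30.6% of the list's UMIs, with 2 UMIs of Siglech and 5 of Bst2. With the top member of each sum left out, a choice made after the values were seen, the list stood at 9549, 7064, 9888 and 15758 CPM in tumors and 9822, 15902, 17364 and 22887 CPM in spleens. Then 6 of 10 genes fell, with a median of -0.74, and the Aire+/+ isotype and Aire-/- anti-PD1 sums kept the lowest spleen and highest tumor values. Medians per member were 6124, 5558, 9845 and 13276 CPM in tumors and 3728, 11408, 11199.8 and 22244 CPM in spleens. Without the Aire+/+ anti-PD1 pools 5 of 11 genes fell, with a median of -0.86, within the CD45+ sorts 0 of 8 fell in edgeR (2 with unadjusted p under 0.05), with a median of -0.09, and within the CD8+ sorts 8 of 10 fell, with a median of -1.54. DESeq2 called 3 of 15.

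**Figure D3:**
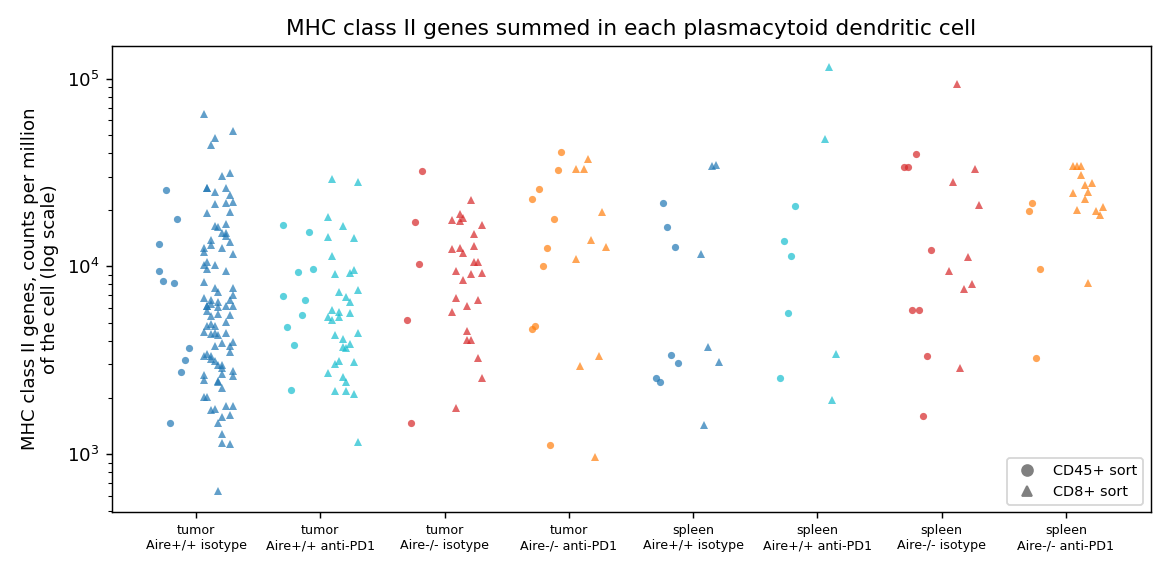
Summed level of 15 MHC class II presentation genes in each member, in CPM of its own UMIs on a log axis, by tissue and condition, with circles for the CD45+ sort and triangles for the CD8+ sort. Medians run from 5558 to 13276 CPM in tumors and from 3728 to 22244 CPM in spleens, and the highest cell, at 115022 CPM, is a spleen member of the Aire+/+ anti-PD1 condition.

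Genes of MHC class I presentation moved the other way. Of 20 tested of 21, 8 rose and 0 fell (1 with unadjusted p under 0.05), with a median of 0.51. H2-T23, a nonclassical class I gene (0.84), H2-Q4 (0.80), the peptide-loading factor Pdia3 (0.77) and B2m, the light chain (0.74), rose most. B2m stood at 3141, 3023, 3122 and 2743 CPM in tumors and 1739, 2066, 1904 and 2126 CPM in spleens (adjusted p = 1.82e-04). H2-Q and H2-T genes are close paralogs, so the split of UMIs between them is uncertain. The list summed to 17131, 17454, 17423 and 17415 CPM in tumors and 12167, 13200.0, 11922 and 13372 CPM in spleens, without overlap.

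Most costimulatory ligands were too low to test. Of 4 costimulatory and co-inhibitory ligands tested of 17 in the tables and 18 listed, 3 rose and 0 fell (0 with unadjusted p under 0.05), with a median of 1.61. Cd40 passed the count filter on its tumor UMIs, which favours genes high in tumors, and nothing is read from the median. Cd40, the receptor for T cell help, had 1 UMI in spleens and was 8.95-fold (interval 1.53 to 361) higher in tumors, and Lgals9, a galectin that binds Tim-3, rose by 1.51 (adjusted p = 1.01e-04). The call of Cd40 was lost without the Aire+/+ isotype pools (adjusted p = 0.053). Of 12 maturation genes tested of 21, 4 rose and 1 fell (Ccl5), with a median of 0.46. Socs3, a brake on cytokine signals, stood at 328, 321, 325 and 221 CPM in tumors and 0, 0, 19.4 and 14.7 CPM in spleens (4.93, adjusted p = 5.82e-12). Serpinb6b, a serpin that inhibits granzymes, rose by 2.19 (adjusted p = 9.53e-05). Without the Aire+/+ isotype or the Aire-/- isotype pools 2 maturation genes rose and 0 fell. Lag3, a receptor already named above, is also in the ligand list, was 1 of the 3 that rose and led the list at 689 CPM in tumors and 345 CPM in spleens. The ligand list, Lag3 included, summed to 1141, 893, 1148 and 858 CPM in tumors and 609, 587, 459.8 and 419 CPM in spleens, and the maturation genes to 991, 883, 1064 and 1020.4 CPM and 287, 526, 1192 and 316 CPM.

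Receptors that place cells in tissue changed in both directions. Of 17 trafficking genes tested of 20, 9 rose and 3 fell, with a median of 0.68. Cd69, which retains cells in tissue by opposing S1pr1, stood at 817, 1024, 910.3 and 1277 CPM in tumors and 52.2, 12.2, 51.8 and 110.3 CPM in spleens (4.18, standard error 0.24, adjusted p = 1.61e-15). Gpr183, an oxysterol receptor that positions dendritic cells, stood at 399, 561, 335 and 315 CPM and 95.7, 61.1, 38.9 and 29.4 CPM (2.95, standard error 0.25, adjusted p = 3.34e-11). Ccr2, the receptor for Ccl2, stood at 70.0, 36.9, 21.2 and 50.7 CPM and 235, 196, 129.5 and 125 CPM (-1.83, standard error 0.26, adjusted p = 2.96e-06). In all 3 genes the tissues did not overlap. Cd69 had a UMI in 185 of 204 tumor members and 14 of 57 spleen members, and Cxcr4, the receptor for Cxcl12, had 3 UMIs in spleens and was 7.59-fold (interval 2.54 to 37.3) higher in tumors.

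Of the genes of the secretory pathway and of the unfolded protein response, 18 rose of 29 tested of 30 with 0 falling (0 with unadjusted p under 0.05), and a median of 0.71. Xbp1, the transcription factor that expands the secretory apparatus, stood at 811, 853, 908 and 872 CPM in tumors and 426, 220.0, 421 and 493 CPM in spleens (1.25, standard error 0.18, adjusted p = 1.98e-06). Hspa5, the chief chaperone of the endoplasmic reticulum, stood at 1093, 1179.8, 1101 and 1567 CPM and 652, 403, 486 and 699 CPM (1.25, standard error 0.16, adjusted p = 3.12e-07). Neither overlapped between tissues. Ddit3, a stress factor that promotes cell death (2.81), and Edem1, which clears misfolded proteins (1.58), also rose. The secretory genes summed to 12079, 12580.3, 12367 and 15157 CPM in tumors and 8349, 7786, 8989 and 9915 CPM in spleens, without overlap, and without the Aire+/+ isotype pools 11 genes rose, with a median of 0.64.

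Of the immediate early and dissociation-associated genes, 18 rose of 26 tested of 30, with 0 falling (1 with unadjusted p under 0.05) and a median of 1.96, the same with Nr4a1 and Atf3 at their bounds. Fos, a subunit of the AP-1 factor, stood at 1597, 1729, 1856 and 1519.7 CPM in tumors and 87.0, 0, 13.0 and 191 CPM in spleens (4.60, standard error 0.31, adjusted p = 1.36e-13), every tumor sum far above every spleen sum. The immediate early list summed to 12176, 13260.0, 14241 and 12834 CPM in tumors and 6131, 4901, 5239 and 7069 CPM in spleens. That list includes Cd69 and Socs3. The paper gives enzymes for tumors alone, in its flow cytometry section. The part of dissociation in Cd69, Socs3 and the other increases was not tested.

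Of 21 glycolysis and hypoxia genes tested of 29, 11 rose and 0 fell (1 with unadjusted p under 0.05), with a median of 0.94. Tpi1, triosephosphate isomerase, rose by 2.69 (adjusted p = 8.92e-08) and Aldoa, an aldolase, by 1.41 (adjusted p = 3.43e-07). Slc2a1, a glucose transporter (2.06), and Bnip3, a hypoxia-induced mitophagy receptor (2.09), also rose, but Slc2a1 not without the Aire+/+ isotype pools (adjusted p = 0.0576) and Bnip3 not without the Aire-/- anti-PD1 pools (adjusted p = 0.0769). Summed over the list, levels were 6747, 5563, 5768 and 5413 CPM in tumors and 3835, 3728, 2998 and 2604 CPM in spleens, without overlap, and other barcodes stood at 15325 CPM in tumors.

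Of 6 survival genes tested of 11, 3 rose and 0 fell (0 with unadjusted p under 0.05), with a median of 0.99. Pmaip1, which encodes the death-promoting protein Noxa, stood at 259, 262, 302 and 213 CPM in tumors and 87.0, 48.9, 19.4 and 44.1 CPM in spleens (2.54, adjusted p = 1.56e-08). Bcl2l11, which encodes the death-promoting protein Bim (2.28), and Mcl1, which opposes both (0.80), also rose. Without the Aire+/+ isotype or the Aire-/- anti-PD1 pools 1 gene of the list rose, and Bcl2l11 was lost (adjusted p = 0.0999 and 0.311). Mcl1 was lost in each leave-one-out fit (adjusted p = 0.0571, 0.0766, 0.144 and 0.118). Of 6 cell cycle genes tested of 20, 1 rose (Hmgb2, a chromatin protein, 1.10) and 1 fell (Stmn1, a microtubule regulator, -2.49), with a median of -0.16. Without the Aire+/+ isotype or the Aire+/+ anti-PD1 pools Stmn1 was too low to test and 0 genes fell. Of 3 oxidative phosphorylation subunits tested of 6, 0 passed in edgeR, with a median of 0.24. Cox7a2 was the 1 of them with an unadjusted p under 0.05 (unadjusted p = 0.00997, adjusted p = 0.0714), and DESeq2 called 0 of 4.

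Genes listed as markers of other cell types are given with their levels in members, and their parts in the results above were not tested. No doublet caller was run, and 54 of 261 members, 40 in tumors and 14 in spleens, carried UMIs of B cell, macrophage, natural killer or neutrophil genes at or above fixed limits. Leaving these possible doublets out gave 388 genes higher and 138 lower. Of 11 T cell markers in the tables, led by Cd8b1, 5 were tested and 3 rose (Cd8b1, Lat and Il7r, a chain of the interleukin 7 receptor), with a median of 1.04 that was -0.69 under DESeq2. Lat, an adaptor of the T cell receptor, did not pass without the Aire+/+ isotype or the Aire+/+ anti-PD1 pools (adjusted p = 0.134 and 0.0811). The list summed to 1389.9, 1289, 1349 and 1125 CPM in tumors and 504, 330.0, 719 and 456 CPM in spleens, against 3012 and 3002 CPM in other barcodes. Cd3e, Cd3d and Cd3g were at 0 by the rule, and Cd6 had 1 UMI in tumors and 0 in spleens. Of 10 B and plasma cell markers held by symbol, led by Mzb1, a chaperone of antibody secretion, 3 were tested, 1 rose (Mzb1) and 1 fell (Jchain), with a median of -0.66 that changed sign in other settings. With the Aire+/+ isotype pools left out Mzb1 did not pass (adjusted p = 0.055), and the 34 spleen UMIs of Jchain all lay in 1 member of the CD45+ spleen library of Aire-/- isotype mice, without whose pools 0 genes of the list fell. The B and plasma cell markers summed to 424, 366, 439 and 300.3 CPM in tumors and 287, 244, 395 and 368 CPM in spleens, and Cd79a, Pax5 and Cr2 were at 0 in both tissues.

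Macrophage markers, 17 in the tables and led by the protease gene Ctsb, summed to 3717, 3558, 3556 and 3430.1 CPM in tumors and 2983, 3483, 2882 and 4097 CPM in spleens. Of 6 tested, 1 rose (Lyz2) and 1 fell (Csf1r), with a median of 0.23. Without the Aire+/+ isotype or the Aire+/+ anti-PD1 pools 0 genes rose and 0 fell, and without either Aire-/- pair 0 rose and Csf1r, the receptor for colony-stimulating factor 1, fell. Of the 119 tumor UMIs of Lyz2, lysozyme of myeloid cells, 112 lay in 1 member of the CD45+ tumor library of Aire+/+ isotype mice, and Lyz2 passed in 0 of the leave-one-out fits that tested it (adjusted p = 0.0614 without the Aire+/+ anti-PD1 pools, 0.107 and 0.0609 without the isotype and the anti-PD1 pools of Aire-/- mice). C1qa, C1qb and C1qc were held to at most 2 UMIs by the rule, so nothing is read from them. Adgre1, Msr1, Ms4a7, Mrc1, Spp1 and Trem2 were at 0 in spleen members, and Adgre1 and Mrc1 had 2 and 1 UMIs in tumor members. Monocyte markers, 12 in all and led by Ly6c2, which pDC share, summed to 8271, 9066, 9369 and 7027 CPM and 7166, 6967, 4896 and 5568 CPM, with 2 of 5 tested higher (Ly6c2 and Plac8), 2 lower (Ccr2 and S100a4) and a median of -0.08. Without the Aire+/+ isotype, the Aire+/+ anti-PD1 or the Aire-/- isotype pools 1 gene of this list fell, since S100a4 was lost (adjusted p = 0.177, 0.151 and 0.113). Chil3, Ear2 and Vcan were at 0 in both tissues.

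Neutrophil markers, 8 in all and led by Ly6g, summed to 10.6, 15.1, 21.2 and 10.9 CPM in tumors and 8.70, 12.2, 6.48 and 22.1 CPM in spleens, with 0 tested and with Ngp, Camp, Retnlg and Cxcr2 at 0. Natural killer markers, 10 in all with 1 tested in edgeR, Klrk1, and 0 called or under 0.05 in unadjusted p (DESeq2 called 0 of 10), summed to 62.3, 53.7, 118 and 76.0 CPM and 26.1, 36.7, 907 and 7.36 CPM. The high spleen value held 42 UMIs of Gzma, a granzyme, in the 1 member of the CD45+ spleen library of Aire-/- isotype mice that carried any, and Ncr1, Klrb1c and Eomes were at 0 in tumors. Erythroid markers, 5 in all with 0 tested, had 0 UMIs in tumors and 1 UMI, of Hbb-bs, in spleens. Of 9 epithelial and stromal markers 2 were tested and 1 rose, Epcam, an adhesion protein, with 86.7, 106, 82.5 and 54.3 CPM in tumors and 17.4, 12.2, 13.0 and 44.1 CPM in spleens (1.94, standard error 0.41, adjusted p = 8.15e-04). Epcam had a UMI in 119 of 204 tumor and 11 of 57 spleen members without overlap of the sums, and stood at 1.92 and 6.81 CPM in other barcodes of tumors and spleens. Krt8, Krt18, Krt19, Cldn4, Col1a1 and Col1a2 were at 0 in both tissues. That list summed to 120.1, 153, 111 and 116 CPM and 52.2, 36.7, 58.3 and 88.3 CPM.

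Conventional dendritic cell markers, 14 in all and led by Cst3, a protease inhibitor, summed to 2097, 2036, 2106 and 2153 CPM in tumors and 3496, 3447, 2623 and 3001 CPM in spleens, without overlap. The lower tumor sums rest on Cst3, without which the list stood at 1210.5, 1136, 1071 and 1245 CPM in tumors and 809, 1528, 1159 and 1508 CPM in spleens, and overlapped. Of 11 tested, 2 rose (Clec10a and Sirpa) and 2 fell (Cd209a and Cst3), with a median of -0.26 that turned positive without the Aire+/+ anti-PD1 pools (0.29) or the Aire-/- isotype pools (0.13). Sirpa, the receptor for Cd47, was lost without the Aire+/+ isotype, Aire+/+ anti-PD1 or Aire-/- isotype pools (adjusted p = 0.399, 0.123 and 0.141), each leaving 1 gene higher. Cst3 stood at 887, 899.6, 1035 and 908 CPM and 2687, 1919, 1464 and 1493 CPM (-0.87, standard error 0.15, adjusted p = 8.56e-05), without overlap, and Xcr1 was at 0 in both tissues. Transitional dendritic cell markers, 12 in all and led by Crip1, summed to 1076, 977, 1318 and 1266 CPM and 3226, 2713, 1865 and 1508 CPM. Of 8 tested, 1 rose (Lyz2) and 4 fell, among them Clec12a, an inhibitory lectin (-1.10), and Crip1 (-0.95), with a median of -0.71. Once the Aire+/+ isotype pools were left out, 1 of 7 rose and 2 fell, and Crip1 was lost (adjusted p = 0.253), and without any other pair of pools 0 rose. Axl and Cd81 were at 0 in spleens.

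To see which tissue differences were particular to pDC, they were compared with those of T cells and of type 1 conventional dendritic cells (cDC1) of the same libraries, and the difference itself was tested in edgeR over 16 sums. T cells numbered 10460 in tumors and 12233 in spleens, and cDC1, selected on Xcr1, Clec9a, Flt3 and Cst3, numbered 151 and 203. The sorts were mixed differently, since 143 of the 151 tumor cDC1 came from CD45+ sorts and 163 of the 203 spleen cDC1 from CD8+ sorts, against 35 of 204 and 33 of 57 members. Sort and tissue therefore cannot be told apart in the comparison with cDC1. With this limit for cDC1, members differed from both in a smaller rise of Irf7, the interferon regulator, in lower differences of 22 and 24 of 45 interferon-stimulated genes and in the fall of Zeb2, while the rise of Ccl4 passed neither test of a difference. Of 12461 genes tested against T cells, 865 had a higher tumor-to-spleen difference in members (6.94%) and 798 a lower one (6.4%), 13.3% in either direction. Against cDC1, 371 of 9365 genes were higher (3.96%) and 290 lower (3.1%), 7.06% in either direction. The number of genes that pass depends on depth, which was far greater in the T cell sums. The paper also reports that its clusters of CD8+ T cells separated mainly by tissue. The parts of depth and of T cell state in these counts and differences were not tested. Of 12848 genes tested between tumor and spleen in T cells, 4821 were higher (37.5%) and 4970 lower (38.7%), 76.2% in either direction. For cDC1 1459 of 8461 genes were higher (17.2%) and 817 lower (9.66%), 26.9% in either direction.

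Ccl4 differed by -0.22 from T cells (adjusted p = 0.653) and by -0.62 from cDC1 (adjusted p = 0.56), neither past the test. For Irf7 the tissue difference of members minus that of T cells was -0.50 (adjusted p = 0.0261), and minus that of cDC1 -1.72 (adjusted p = 6.94e-05). Zeb2 differed by -2.99 from T cells (adjusted p = 2.30e-33) and by -2.68 from cDC1 (adjusted p = 6.94e-04), so members differed from both. H2-Ab1 differed by -2.02 and -1.17 (adjusted p = 1.31e-33 and 0.0161).

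Of the interferon-stimulated genes, 40 rose in T cells (37.5% of all genes) and 2 fell (38.7%), with a median of 1.55. In cDC1 43 rose (17.2%) and 0 fell (9.66%), with a median of 2.40, beside 13, 0 and 0.65 in members. Of 45 genes, the difference was lower in members for 22 against T cells and 24 against cDC1, and higher for 3 and 0. Interferon-γ-stimulated genes rose for 13 and fell for 1 in cDC1, with a median of 2.62 beside 0.57 in members, and 7 differences were lower in members and 0 higher. Against T cells, where 10 of these genes rose and 4 fell with a median of 0.35, 5 differences were higher in members and 1 lower. Glycolysis and hypoxia genes rose for 21 with 0 falling in T cells, with a median of 2.16 beside 0.94 in members, and 12 differences were lower and 0 higher. Against cDC1, where 17 rose and the median was 1.27, 1 difference was lower.

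Of the secretory genes, 12 had a higher difference in members than in cDC1. In cDC1 5 rose and 4 fell, with a median of -0.05 beside 0.71 in members, and 0 differences were lower in members. In T cells 26 rose and 1 fell, with a median of 0.72, and 3 differences were higher and 0 lower. MHC class II genes had medians of -0.18 in T cells and -0.16 in cDC1 beside -1.29 in members, with 6 and 5 differences lower and 1 higher in each. The median of members was -0.74 without the top member of each sum and -0.09 within the CD45+ sorts, and these were not compared with the other types. Immediate early genes rose for 21 with 0 falling in both other types, with medians of 2.15 and 3.03 beside 1.96, and 4 differences were higher and 4 lower against T cells, 1 higher and 4 lower against cDC1. Markers of pDC outside the rule had 22 higher and 13 lower differences against T cells, and 11 and 5 against cDC1, with medians of 0.12 and 0.11 in those cells. Endosomal sensing genes had 7 higher and 3 lower differences against T cells and 2 and 5 against cDC1.

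**Figure D4:**
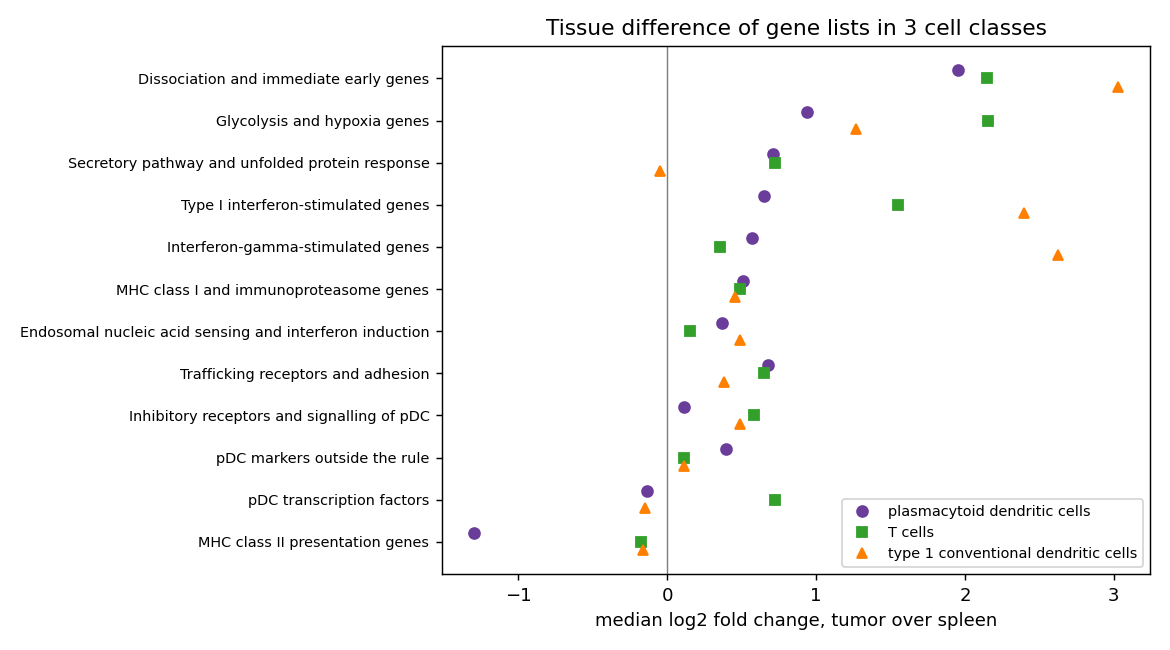
Median log2 difference between tumor and spleen of 12 gene lists in members, T cells and cDC1. Interferon-stimulated genes have medians of 0.65, 1.55 and 2.40, secretory genes 0.71, 0.72 and -0.05, and MHC class II genes -1.29, -0.18 and -0.16, where the median of members within the CD45+ sorts was -0.09.

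Members of the CD8+ and the CD45+ sorts were compared within each tissue and condition, a comparison added after the member numbers were seen. Whether both sorts came from the same mice is not stated, and the kit of each library is not certain. If kits differed by sort, sort and kit cannot be told apart. Sort also enters the tissue sums in unlike parts, with 169 of 204 tumor and 33 of 57 spleen members from CD8+ sorts. Of 4973 genes tested in edgeR, 3 were higher in the CD8+ sort (0.0603%) and 23 lower (0.462%), 0.523% in either direction. The 3 were Cd8a (1.95), which codes for the antigen sorted on, H2-DMb2 (3.08) and 1810065E05Rik (2.07), all named after their values were seen. Among the lower ones, the monocyte chemoattractant Ccl12 (-7.69) had UMIs in 4 of 204 tumor members and 0 of 57 spleen members. Of the 91 UMIs of Ccl12, 62 lay in 1 member of the CD45+ library of Aire-/- isotype tumors. The tissue comparison within CD45+ sorts called 158 genes higher and 32 lower, and within CD8+ sorts 263 and 108.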

How the data were processed

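RNA of CD45+ and CD8+ cells of tumors and spleens was measured in 16 libraries (10x Chromium). The sample records name a 3′ kit, and the paper also names a 5′ kit for RNA and V(D)J libraries, so the kit of each library is not certain. The authors deposited 1 table of UMI counts per library, made with Cell Ranger on GRCm38, with 25127 genes each. Rows of 1 symbol were summed (24495 symbols), 26 vector symbols were left out, and members were selected as the report states. The members and lists were chosen with earlier results of these data known. Member UMIs were summed per tissue and condition and fitted in edgeR 4.0.16 (R 4.3.3; TMM scaling, filterByExpr with min.count 5, quasi-likelihood F-test, condition as a block), with Benjamini-Hochberg adjustment over all genes tested and calls at an adjusted p under 0.05. The block pairs tumor and spleen of 1 condition, and whether both came from the same mice is not stated. The tests of differences between cell types used 16 sums.

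Named are the rule genes, pDC markers, sensing, interferon and transcription factor genes whatever they do, up to 4 called genes per list with the largest log2 change, and the 15 genes per direction with the largest change among those called, with the same sign in all conditions and at least as abundant in members as in other barcodes, plus 5 that fail only the latter. Immunoglobulin genes were held by Ensembl identifier and named with GENCODE M21. Alternatives were DESeq2 1.42.0, RLE scaling, no filter, no block, leaving out each condition, sort, member rule, quality, possible doublets and depth. Python 3.11.15, numpy 2.4.6, scipy 1.17.1 and pandas 2.3.3 were used. Trac, Trbc1 and Trbc2 were not used here.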

Additional observations from a re-analysis of the deposited data

Results flagged for a closer look

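Among 64 groups of 4 sums examined, which are 4 conditions and not replicates, 5 held a sum far from the other 3, by a gap to the nearest sum, as a share of the group's range, above Dixon's 95% critical value. Chance gives such a gap in about 1 in 20 groups. For Kctd14 in tumors the gap was 0.841 of the range, with the Aire-/- isotype sum at 0 and the others at 3.04, 3.36 and 3.62 CPM, which were 4, 2 and 1 UMIs, so the flag rests on 0 UMIs beside 1 to 4. For Fam46c, Cd59a, Il12a and Gpr55 in spleens the gap was 1, the whole range, because 1 sum held 1 or 2 UMIs (7.36, 17.4, 7.36 and 8.70 CPM) and the other 3 were at 0.

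Of the 30 genes with the largest changes, 10 had a tumor-to-spleen difference that differed from that of cDC1 in edgeR, against 7.06% of all genes tested. These genes were chosen for that same tissue change, which favours such calls, so nothing is read from the count. Tumor cDC1 came mostly from CD45+ and spleen cDC1 mostly from CD8+ sorts, so sort and tissue cannot be told apart here. Spsb1 had a difference higher in members by a fitted 7.19 (adjusted p = 0.00684), and Fam46c by 3.54 (adjusted p = 0.0164). Both were at or near 0 in spleen members, so the fitted sizes depend on the prior count. Kctd14 (-2.87, adjusted p = 0.0166), Myo1f (-2.20, adjusted p = 0.000618), Sepp1 (-2.79, adjusted p = 0.00362), Ciita (-2.14, adjusted p = 0.0117) and Tmem176a (-2.61, adjusted p = 0.0029) had lower differences in members than in cDC1. So did Adora2a (-3.91, adjusted p = 0.00319), Adrbk2 (-2.24, adjusted p = 0.0445) and Cd209a (-2.56, adjusted p = 0.00365). In cDC1 the fitted changes were -0.16, -0.52, 0.22, -0.47, 0.11, 1.39, -0.13 and 0.36 for these 8 genes in the order named.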

How the results depend on the processing

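The 536 genes higher and 253 lower in tumors became 158 and 32 in members of the CD45+ libraries (140 and 31 shared with those reported), 263 and 108 in members of the CD8+ libraries, a setting chosen after seeing the data (255 and 97 shared), 355 and 165 with DESeq2 (345 and 147 shared), and 108 and 47 with members thinned to 2000 UMIs (106 and 40 shared). Leaving out 1 condition gave 336 to 453 higher and 121 to 200 lower genes. Leaving out the 54 possible doublets, members with UMIs of other cell types, gave 138 lower genes (132 shared). Apart from DESeq2, which used the same sums and tested 12380 genes, these settings hold fewer members or UMIs, and the sorts and thinning tested 3579, 4439 and 1681 genes, and the cause was not tested. RLE scaling, no filter, no block, the stricter rule, the quality filter and leaving out the top MHC class II member, the latter chosen after seeing the data (479 and 226), kept both counts within 1.5 times. No sum held fewer than 5 members, and the T cell receptor genes of the planned other-cell setting were not used here. Over the alternatives, 187 called genes named or in lists gave 2772 values: 2309 kept direction and call, 459 lost the call and 4 changed sign. S100a4 (0.31), H2-Oa (0.20) and 1 gene not named here (-0.071) did so within the CD45+ libraries, and Mctp2 (-0.17) with thinning, and the cause was not tested. Of the 30 genes with the largest changes, 17 kept their call in every setting that tested them and 0 changed sign. Thinning all barcodes to 2000 UMIs moved the share of members in the CD8+ spleen library of Aire+/+ anti-PD1 mice from 0.135% to 0.0343%, and the other shares stayed within their intervals. Spleen sums, with 81818 to 154418 UMIs, limit what could be detected below about 6.16 CPM.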

Other observations

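By genotype and treatment, 1 library of each sort stood for each condition, so the following are values without a test, with exact Poisson 95% intervals that cover counting error only. MHC class II genes stood highest in the Aire-/- anti-PD1 tumors in both sorts, at 17415 CPM (16745 to 18105) in the CD45+ and 16239 CPM (15554 to 16946) in the CD8+ library. The Aire+/+ anti-PD1 tumors stood lowest in both sorts, at 8266 CPM (7749.5 to 8808) and 7475 CPM (7232 to 7723). Aire+/+ isotype tumors stood at 9589.6 and 10079 CPM, and Aire-/- isotype tumors at 12931 and 10183 CPM, in the CD45+ and CD8+ libraries. Single members weigh on the highest values. The CD8+ library of Aire-/- anti-PD1 tumors includes the interferon-rich cell, with 544 MHC class II UMIs, and the CD45+ library includes 1 member with 591.

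Secretory genes in tumors stood at 11199, 12889, 10458 and 15008 CPM in the CD45+ sorts and at 12176, 12506, 12784 and 15325 CPM in the CD8+ sorts, so that the Aire-/- anti-PD1 library was the highest of both sorts. In spleens they stood at 7443, 9222, 8469.5 and 7905 CPM in the CD45+ sorts and at 9387, 5862, 9549 and 10341 CPM in the CD8+ sorts, with no condition highest in both. Cytokine and effector genes in the CD8+ tumor sorts stood at 4481, 3764, 3727 and 10063 CPM, and the last value includes the interferon-rich cell. In the CD45+ tumor sorts they stood at 3013, 6739, 5722 and 2586 CPM, a different order. The Aire+/+ anti-PD1 value of the CD45+ sorts includes 1 member with 347 UMIs of the list, at 49692 CPM of its own UMIs.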
